A study of Homo sapiens with 6 samples.

Results

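The receptor tyrosine kinases outside the insulin receptor and IGF-1R pair were examined as a group of 54 genes, taken by symbol from the 60676 genes of the RNA-seq count table of TC71 cells with and without knockdown (KD) of EHD1. EHD1 is an endocytic recycling ATPase that returns internalized receptors to the plasma membrane. The study followed IGF-1R as its receptor target and asked what EHD1-KD does to the transcriptome. Members were matched by gene symbol, from a list drawn up with earlier results of these data known. It holds INSRR, which belongs to the insulin receptor family by sequence and is kept here because the list names it.

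TC71 is an established human Ewing sarcoma line carrying the EWS-FLI1 fusion oncogene. Lentiviral vectors that also encode GFP carried doxycycline (Dox)-inducible shRNAs, directed at EHD1 in the shEHD1 line and at no human gene in the shNTC control line. The shEHD1+Dox and shNTC+Dox groups held 3 libraries each, and both groups received 0.5 µg/ml Dox for 3 days, so Dox itself and the GFP vector were common to all libraries. The lines are pools of transduced cells rather than clones. The labels do not say which of the study's EHD1 shRNAs these libraries carry, and an effect of EHD1 loss cannot be told apart from an off-target effect of the shRNA used. Nothing in the labels says that the replicates were separate cultures, so the p-values measure the spread between these libraries, which may be technical.

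Receptor tyrosine kinases are single-pass membrane proteins in which ligand binding brings together intracellular kinase domains that phosphorylate each other and recruit adaptor proteins feeding the RAS/ERK and PI3K pathways. Their families bind distinct ligands: ephrins for the EPH receptors, fibroblast growth factors for the FGFRs, GAS6 and protein S for the TAM receptors, collagens for the DDRs and WNT5A for ROR receptors. Several members (ERBB3, PTK7, RYK, ROR1, ROR2, STYK1) are described as having little or no catalytic activity of their own and acting with partner receptors.

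Library totals ran from 22711235 to 30582187 counts, and 3 counts, used as the limit that a count of 0 allows, corresponded to between 0.0968 and 0.134 CPM (read counts scaled to a common library size) per library. This limit covers counting error only, and it holds only where a 0 means that no read was sampled. Among the receptors no count of 1 or 2 occurred, and the lowest count above 0 was 3. A 0 could stand beside a higher count in the same group, as in MST1R with 0, 0 and 12 in shNTC. Among the ligands counts of 1 and 2 did occur, as in FGF7 with 2, 1 and 0 in shNTC. Whether low receptor counts were set to 0 in the counting was not tested. The knockdown was seen in every library: EHD1 had 713, 775 and 589 counts in shNTC and 215, 175 and 290 counts in shEHD1, leaving 29.6% of the control level (log2 fold change -1.76, SE 0.12, adjusted p = 0.000135). Replicate 3 of shNTC stood apart from the other control libraries. Its chi-square per degree of freedom over genes was 25.6 and 27.1 against replicates 1 and 2, whereas those differed from each other by 5.56. In shEHD1, replicate 2 differed from replicates 1 and 3 by 18 and 16.8, whereas those differed from each other by 7.59. Pairs across the groups differed by 32.3 to 63.6. Receptor calls that changed without shNTC replicate 3 are given with and without it.

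The libraries carried the markers of the labelled cell type. Of 11 Ewing sarcoma markers 10 were abundant enough to test, among them NR0B1 (mean 188.9 CPM in shNTC), a direct EWS-FLI1 target, and the surface antigen CD99 (233.8 CPM), and the list summed to between 1265 and 1329 CPM in all 6 libraries. Within that stable sum 5 of the 10 markers tested were called (50.0%, beside 17.3% of all genes tested), DKK2 and CD99 higher and STEAP1, NPY1R and PAX7 lower, and NPY1R, the most abundant, went from 238.8 to 175.2 CPM. The CD99 call was lost with the replicate number as a block (adjusted p = 0.0787) and in 4 fits with 1 library left out, and that of PAX7 without shEHD1 replicate 1 (adjusted p = 0.0521). The marker too low to test was the neuropeptide gene CCK, with 11, 5 and 12 counts in shNTC and 0 in each shEHD1 library.

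Of the 54 receptors, 13 had 0 counts in every library: EGFR, KIT, FGFR2, the VEGF receptors FLT1 and KDR, the angiopoietin receptors TEK and TIE1, the neurotrophin receptors NTRK2 and NTRK3, MUSK, ROS1, EPHA6 and EPHA8. A further 9 (CSF1R, PDGFRA, RET, MST1R, INSRR, EPHA1, EPHA10, EPHB1 and EPHB6) never exceeded 13 counts in a library and did not pass the filter on low counts. RET, the GDNF-family receptor, had 9, 0 and 11 counts in shNTC and 0, 3 and 0 in shEHD1. EPHA10 had 3, 4 and 3 counts in shNTC and 0 in each shEHD1 library, values at the counting limit on both sides. The remaining 32 receptors reached at least 10 counts in at least 3 libraries, the filter applied to all genes, and 21 of them had a mean of at least 10 CPM in shNTC. The account of change covers these 32 of the 54 and not the list as a whole. Fitted with no filter on low counts, none of the 9 low receptors was called, the lowest adjusted p being that of EPHA10 (0.140), and 2 of them, EPHA10 and EPHA1, were at an unadjusted p under 0.05.

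Per kilobase of exon, the most abundant receptor in control cells was EPHA3, a receptor for membrane-tethered ephrin-A ligands, at 17.4 ± 3.00 CPM per kilobase (SD, n = 3). PTK7, a pseudokinase of planar cell polarity, followed at 13.6 ± 0.87, EPHB4, the receptor of ephrin-B2, at 13.4 ± 0.74, and PDGFRB, the receptor of PDGF-B and PDGF-D, at 13.3 ± 3.52 CPM per kilobase. The control libraries of these 4 receptors overlapped in their per-kilobase levels, so their order is not fixed. MERTK, a TAM receptor known for the clearance of apoptotic cells, came next at 7.84 ± 0.90 CPM per kilobase, close to IGF1R at 7.98 ± 0.39 and to RYK, a WNT-binding pseudokinase, at 7.25 ± 0.36. The 5 highest receptors held 47.2% of the summed per-kilobase level of all 54. Dividing by the longest transcript in place of the exon union put PTK7 first, EPHA3 second and MERTK ninth.

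**Figure D1:**
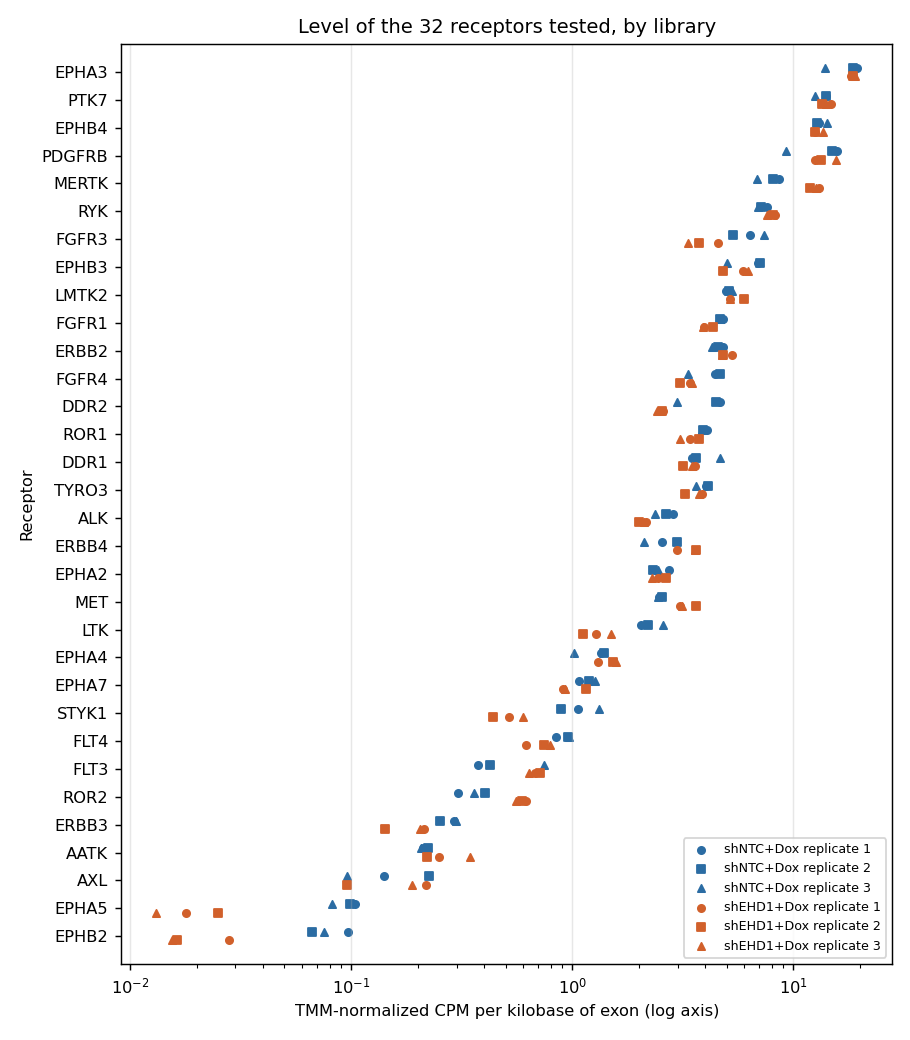
TMM-normalized CPM per kilobase of exon (log axis) for the 32 receptors tested, with 1 point per library, blue for shNTC+Dox and orange for shEHD1+Dox, ordered by the shNTC mean. EPHA3, PTK7, EPHB4 and PDGFRB stood highest and EPHA5 and EPHB2 lowest, and shNTC replicate 3 (blue triangles) lay below the other controls for PDGFRB, EPHA3 and DDR2.

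The most abundant receptors other than MERTK were not called, and their 95% intervals lay inside a 2-fold change. EPHA3 read 128.2, 123.0 and 91.8 CPM in shNTC and 119.9, 122.8 and 125.1 CPM in shEHD1 (log2 fold change 0.10, SE 0.12, adjusted p = 0.594). PTK7 read 126.5, 126.0 and 112.7 CPM against 132.8, 121.2 and 126.2 CPM (log2 fold change 0.06, SE 0.07, adjusted p = 0.627). The groups overlapped for both genes. EPHB4 read 83.9, 82.6 and 91.3 CPM against 81.0, 80.4 and 87.9 CPM (log2 fold change -0.05, SE 0.07, adjusted p = 0.693). PDGFRB read 112.1, 106.4 and 66.0 CPM against 89.7, 94.99 and 110.9 CPM (log2 fold change 0.05, SE 0.20, adjusted p = 0.878). The low PDGFRB value belongs to shNTC replicate 3, and without that library its log2 fold change was -0.15 (adjusted p = 0.264) and that of EPHA3 -0.04 (adjusted p = 0.703).

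Upon EHD1-KD, 9 of the 32 receptors tested (28.1%) changed at an adjusted p under 0.05 in edgeR's quasi-likelihood test with Benjamini-Hochberg adjustment over all 16785 genes tested, against a background of 17.3% of those genes. MERTK, MET and ROR2 rose, which is 3 receptors (9.38%, with 8.59% of all genes called higher). DDR2, EPHA5, EPHB2, FGFR3, LTK and STYK1 fell, which is 6 receptors (18.8%, with 8.75% of all genes called lower). A call that also required a 2-fold change kept EPHA5, EPHB2 and STYK1 (9.38%, background 2.82%), all lower (background 1.74%), and no receptor in the higher direction (background 1.08%). Other size factors, no filter or a replicate block also gave 3. Only 1 was left with DESeq2 (3.12%, background 2.78%) or with 10 counts in every library (3.33%, background 2.7%). Without shNTC replicate 3 it was also 1 (3.23%, background 2.73%). EPHA5 and EPHB2, counted as lower under both rules, passed the filter on low counts only with the control libraries, where they are high. Their place in these counts therefore carries no weight of its own. The counts are small and are given as a description of the list, with no test of it against other genes. The median log2 fold change of the 32 was -0.08, beside 8e-04 over all genes tested, and 14 had a higher and 18 a lower mean in shEHD1. Summed over the 54 receptors, the level was 1107, 1087 and 972.7 CPM in shNTC and 1044, 1039 and 1059 CPM in shEHD1. These are RNA levels of whole cultures, in which fewer cells with a transcript and less of it per cell cannot be told apart, and they give no information on receptor protein or on its place in the cell.

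**Figure D2:**
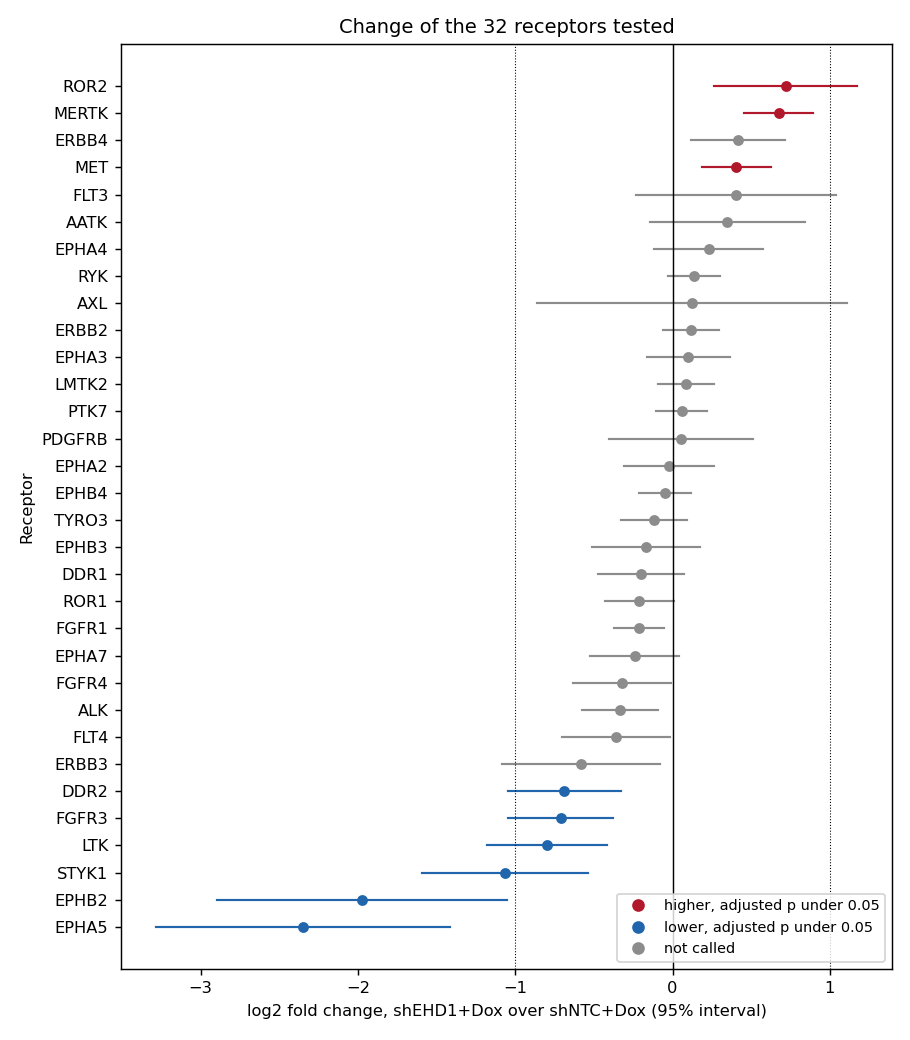
Log2 fold change of shEHD1+Dox over shNTC+Dox with its 95% interval for the 32 receptors tested, red for 3 called higher, blue for 6 called lower and grey for 23 not called, with dotted lines at a 2-fold change. EPHA5 and EPHB2 had the largest falls, at -2.35 and -1.97, and ROR2 and MERTK the largest rises, at 0.72 and 0.67.

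In 15 of the 32 receptors (46.9%, against 39.3% of all genes tested) the values of the groups did not overlap, 4 with all shEHD1 libraries higher (12.5%, against 19.9% of all genes) and 11 with all of them lower (34.4%, against 19.4%). The 9 called receptors were all among them. Each of the 15 reached p = 0.1 in an exact permutation test (two-sided), the smallest p that 6 libraries in groups of 3 allow, so this test alone could not pass 0.05.

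MERTK had the highest level per kilobase of the TAM receptors in control cells, with TYRO3 at 3.92 and AXL at 0.154 CPM per kilobase, and was the one that rose. Its counts were 936, 923 and 632 in shNTC and 1542, 1197 and 1613 in shEHD1, which is 35.6, 33.3 and 28.3 CPM against 54.2, 48.9 and 52.1 CPM. All shEHD1 libraries stood above all controls. The rise was 1.596-fold (log2 fold change 0.67, SE 0.10, adjusted p = 0.00264), and MERTK was the only one of the 9 that kept its call at an adjusted p under 0.05 in all 11 alternatives that apply this rule, with log2 fold changes of 0.59 to 0.74. Tested against a 2-fold threshold in the model, neither MERTK nor any other receptor was called. With shNTC replicate 3 left out it was 0.59. The other TAM receptors were not called, and their difference from MERTK was not tested. TYRO3 read 43.2, 44.4 and 39.0 CPM in shNTC and 41.7, 34.7 and 40.2 CPM in shEHD1 (log2 fold change -0.12, 95% interval -0.33 to 0.09). AXL was scarce, at 0.722, 1.16 and 0.492 CPM against 1.12, 0.490 and 0.969 CPM, and its interval of -0.86 to 1.11 holds the MERTK value and reaches a 2-fold rise.

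PROS1, encoding protein S, a ligand of MERTK and TYRO3, rose together with MERTK. Its counts were 715, 675 and 603 in shNTC and 1463, 1134 and 1334 in shEHD1, with the groups well apart (log2 fold change 0.84, SE 0.09, adjusted p = 0.000734). GAS6, the ligand shared by all TAM receptors, was close to absent, with 5, 8 and 0 counts in shNTC and 0, 2 and 5 in shEHD1.

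MET, the receptor of hepatocyte growth factor, read 469, 507 and 393 counts in shNTC and 634, 639 and 705 in shEHD1, or 17.8, 18.3 and 17.6 CPM against 22.3, 26.1 and 22.8 CPM. The controls lay close together and below all knockdown libraries, and the rise was 1.32-fold (log2 fold change 0.40, SE 0.10, adjusted p = 0.0234). This call was lost with the replicate number as a block (adjusted p = 0.0557) and whenever 1 library other than shNTC replicate 3 was left out, while the log2 fold change stayed between 0.33 and 0.45. HGF, its ligand, and CD44, which can act as its co-receptor, were at 0 counts in every library.

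ROR2 and its ligand moved in opposite directions. ROR2 counts were low, 47, 66 and 47 in shNTC and 103, 85 and 101 in shEHD1, with no overlap (1.65-fold, log2 fold change 0.72, SE 0.20, adjusted p = 0.0393). The ROR2 call was lost with no filter on low counts (adjusted p = 0.0584), with the replicate number as a block (adjusted p = 0.0923) and in every fit that left out 1 library other than shNTC replicate 3, with adjusted p-values up to 0.133. WNT5A, the non-canonical WNT that binds ROR receptors, fell to 35.6% of control, from 441, 503 and 447 counts in shNTC to 182, 155 and 210 in shEHD1 (log2 fold change -1.49, SE 0.12, adjusted p = 0.000207), and stayed called under the alternatives that were tried. ROR1, at 27.4, 26.3 and 25.8 CPM in shNTC and 23.0, 25.1 and 20.7 CPM in shEHD1, did not pass the test (log2 fold change -0.21, adjusted p = 0.166), although its groups did not overlap.

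**Figure D3:**
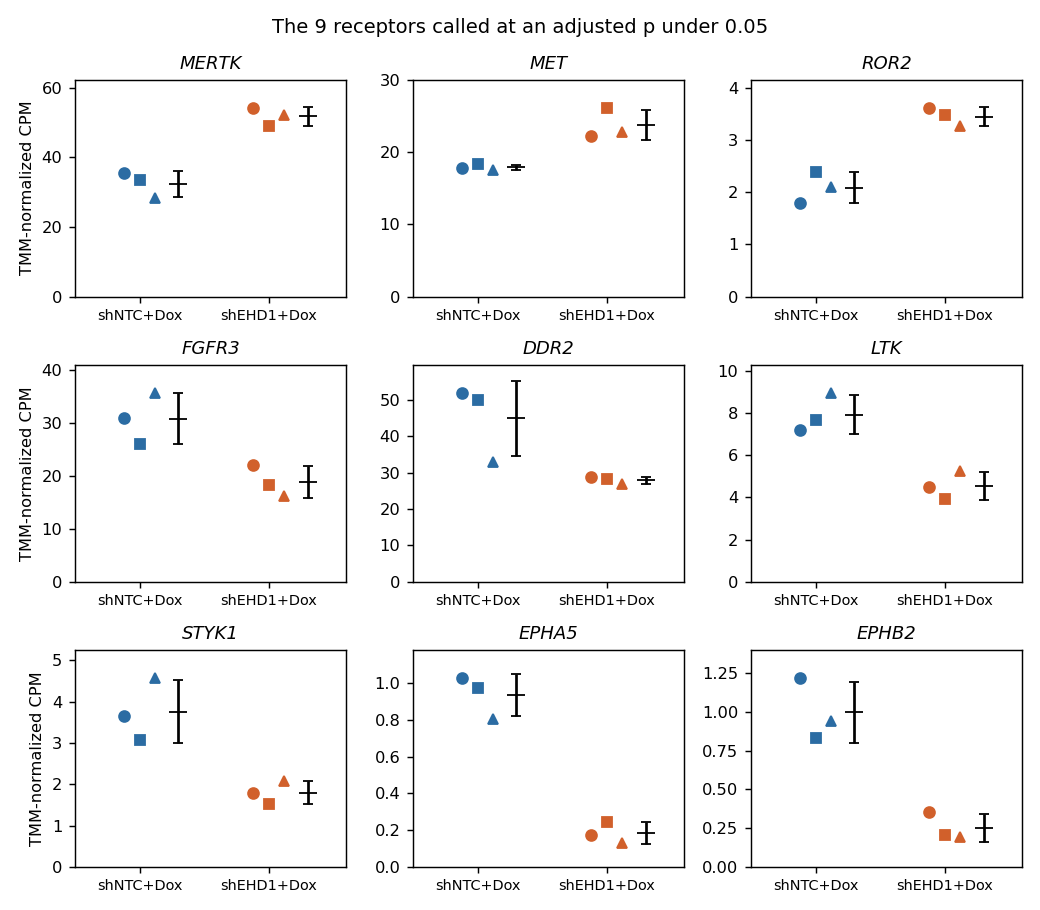
TMM-normalized CPM (linear axes from 0) of the 9 called receptors in each library, circles, squares and triangles standing for replicates 1, 2 and 3, with the mean and SD of each group as a bar. MERTK, MET and ROR2 lay higher in all shEHD1+Dox libraries, the other 6 lower, and shNTC replicate 3 of DDR2 sat at 32.9 CPM, between the other controls and the knockdown libraries.

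Of the 8 EPH receptors tested, EPHA5 and EPHB2, the lowest in control cells, fell and the other 6 did not pass the test. EPHA5, best known as an axon guidance receptor, had 27, 27 and 18 counts in shNTC and 5, 6 and 4 in shEHD1, leaving 19.7% (log2 fold change -2.35, SE 0.41, adjusted p = 0.00653). EPHB2, an ephrin-B receptor, had 32, 23 and 21 counts against 10, 5 and 6, leaving 25.5% (log2 fold change -1.97, SE 0.41, adjusted p = 0.0127). No library of one group reached the other group for either gene. Both are low in absolute terms, at 0.936 ± 0.115 and 0.996 ± 0.199 CPM in shNTC (SD, n = 3) and 0.183 ± 0.058 and 0.250 ± 0.088 CPM in shEHD1. EPHA5 passed the filter on low counts through the control libraries alone, where it is high, so its count among the calls carries no weight of its own. The same holds for EPHB2, which with 10, 5 and 6 counts in shEHD1 passed only with the control libraries. EPHA5 was no longer tested where 10 counts were required in every library or where a control library was left out. It kept its call in the other 6 alternatives with an adjusted p. EPHB2 was likewise not tested with 10 counts required in every library and lost its call without shEHD1 replicate 3 (adjusted p = 0.0545). The filter on low means in DESeq2 left both without an adjusted p.

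The other EPH receptors tested were EPHA2, EPHA4, EPHA7 and EPHB3, beside EPHA3 and EPHB4 above, and none was called. Their log2 fold changes lay between -0.24 (EPHA7, adjusted p = 0.215) and 0.23 (EPHA4, adjusted p = 0.338), with intervals inside a 2-fold change. The summed level of the ephrin-A receptors was 168.7, 163.8 and 131.4 CPM in shNTC and 155.1, 165.0 and 162.1 CPM in shEHD1, and that of the ephrin-B receptors 116.6, 115.6 and 114.9 against 108.4, 102.4 and 116.2 CPM. Of the ephrins, EFNB1 was high and rose, with 4572, 4783 and 3689 counts in shNTC and 6800, 4855 and 7237 in shEHD1 (log2 fold change 0.39, SE 0.08, adjusted p = 0.0132), a call lost without shEHD1 replicate 1 (adjusted p = 0.0635) or 3 (adjusted p = 0.0621). EFNA5 (log2 fold change 0.39, adjusted p = 0.0900), EFNA4 (0.23), EFNB3 (0.07), EFNA3 (-0.01) and EFNA1 (-0.12) did not pass, and EFNA2 and EFNB2 never exceeded 6 counts. EFNA5 was called without shNTC replicate 3 (adjusted p = 0.00441). EFNA3 and EFNA4 share exons with a readthrough transcript of the pair, so their reads could be split in the counting.

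FGFR3 was the FGF receptor called. It had 811, 720 and 795 counts in shNTC and 628, 445 and 501 in shEHD1, or 30.8, 26.0 and 35.6 CPM against 22.1, 18.2 and 16.2 CPM. The lowest control stayed above the highest knockdown library, and 61.1% of the level was left (log2 fold change -0.71, SE 0.15, adjusted p = 0.0132). The call was lost without shEHD1 replicate 2 (adjusted p = 0.0540) or replicate 3 (adjusted p = 0.0574). FGFR1 read 82.95, 80.0 and 79.9 CPM in shNTC and 68.0, 74.4 and 67.0 CPM in shEHD1, and FGFR4 21.3, 22.4 and 16.1 against 16.4, 14.8 and 16.7 CPM. Both were below control in mean without passing the test (adjusted p = 0.0649 and 0.141), though FGFR1 was called by DESeq2 (adjusted p = 0.0367) and without shEHD1 replicate 2 (adjusted p = 0.0448), and both were called lower without shNTC replicate 3 (adjusted p = 0.0384 and 0.00911). Differences between the FGFRs were not tested, and the summed level of the FGFRs was 135.1, 128.4 and 131.6 CPM in shNTC against 106.4, 107.3 and 99.9 CPM in shEHD1. FGF2, a ligand of FGFR1 and FGFR3, had 192 to 305 counts in shNTC and 301 to 324 in shEHD1 and did not pass (log2 fold change 0.25, adjusted p = 0.299). FGF1, FGF8, FGF9 and FGF18 never exceeded 7 counts.

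DDR2, a receptor for fibrillar collagen that marks mesenchymal cells, had 1364, 1380 and 735 counts in shNTC and 816, 690 and 828 in shEHD1. In CPM these were 51.8, 49.8 and 32.9 against 28.7, 28.2 and 26.8, so that shNTC replicate 3 came close to the knockdown libraries without overlapping them. The fall left 62.1% (log2 fold change -0.69, SE 0.16, adjusted p = 0.0208). Without shNTC replicate 3 the log2 fold change was -0.87 (adjusted p = 5.6e-05), whereas each of the 5 other fits with 1 library left out lost the call, with adjusted p-values of 0.0594 to 0.0836. DDR1, its epithelial relative, read 31.6, 33.0 and 42.7 CPM against 32.7, 28.8 and 31.8 CPM and was not called (log2 fold change -0.20, adjusted p = 0.287). COL3A1, a collagen and therefore a potential DDR2 ligand, rose in the same libraries from 5307, 5821 and 3814 counts to 9528, 9568 and 10881 (log2 fold change 0.89, SE 0.10, adjusted p = 0.000732). The other fibrillar collagens of the marker list, COL1A1 (log2 fold change 0.16, adjusted p = 0.539) and COL1A2 (at most 20 counts, 0.67, adjusted p = 0.720), did not pass.

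LTK and ALK, the pair of receptors for the ALKAL cytokines, were both below control. LTK had 189, 212 and 200 counts in shNTC and 128, 96 and 162 in shEHD1, or 7.18, 7.66 and 8.96 CPM against 4.50, 3.92 and 5.23 CPM. The groups did not overlap and 57.5% was left (log2 fold change -0.80, SE 0.17, adjusted p = 0.0141), with the call lost without shEHD1 replicate 1 (adjusted p = 0.0594). ALK, a receptor of the developing nervous system, read 21.2, 19.6 and 17.5 CPM against 15.9, 14.8 and 15.5 CPM, also without overlap, but did not pass (log2 fold change -0.33, SE 0.11, adjusted p = 0.0613), though DESeq2 called it (adjusted p = 0.0398). Of their ligands, ALKAL1 was at 0 counts in every library and ALKAL2 at 0 to 7.

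STYK1, a receptor-like pseudokinase with no known ligand, had 96, 85 and 102 counts in shNTC and 51, 37 and 64 in shEHD1. All knockdown libraries were below all controls and 47.9% was left (log2 fold change -1.06, SE 0.23, adjusted p = 0.0161). The call was lost without shEHD1 replicate 1 (adjusted p = 0.0645) or 2 (adjusted p = 0.0541).

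The ERBB receptors were not called, though ERBB4 lay close to the threshold. ERBB2, an orphan partner of the family, read 49.7, 46.9 and 44.5 CPM in shNTC and 54.6, 49.7 and 48.9 CPM in shEHD1 (log2 fold change 0.12, adjusted p = 0.331). ERBB4, a neuregulin receptor, read 33.1, 38.6 and 27.5 CPM against 38.7, 47.1 and 46.9 CPM, with the groups just apart (log2 fold change 0.42, SE 0.13, adjusted p = 0.0596). ERBB4 was called higher with no filter on low counts (adjusted p = 0.0497), with at least 10 counts in every library (0.0477), with DESeq2 (0.0222) and without shNTC replicate 2 (0.0305). ERBB3 read 3.42, 2.96 and 3.49 CPM against 2.49, 1.68 and 2.39 CPM (log2 fold change -0.58, SE 0.22, adjusted p = 0.105). ERBB4 thus leaned up and ERBB3 down without passing, and EGFR was at 0. NRG1, which binds ERBB3 and ERBB4, rose from 2054, 2251 and 1530 counts to 2727, 2700 and 3111 (log2 fold change 0.43, SE 0.09, adjusted p = 0.0120).

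Together with FLT4 (the VEGF-C receptor, log2 fold change -0.36, adjusted p = 0.136), FLT3 (a hematopoietic cytokine receptor, 0.40, adjusted p = 0.364), RYK (0.14), LMTK2 (0.09) and AATK (0.35), 23 of the receptors tested were not called. Their log2 fold changes ran from -0.58 to 0.42, and 20 of them had a 95% interval within a 2-fold change in either direction. The exceptions were AXL, ERBB3 and FLT3. Reads cannot be assigned to a strand in these libraries, and 13.7% of the exon length of AATK and 6.93% of that of ERBB2 overlaps genes on the opposite strand. For the called receptors, EPHA5 shares 5.44% of its exon length with its antisense gene EPHA5-AS1 and EPHB2 0.272% with a microRNA gene, and the other 7 share none.

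Leaving out shNTC replicate 3 raised the number of called receptors from 9 to 12, while the share of all genes called rose from 17.3% to 21.8%. Of the 9, 8 stayed called, EPHA5 not being tested there, and ALK (log2 fold change -0.40, adjusted p = 0.0143), FGFR1 (-0.23, adjusted p = 0.0384), FGFR4 (-0.46, adjusted p = 0.00911) and FLT3 (0.75, adjusted p = 0.0385) were added. In that library 8 of the 32 receptors (25.0%) lay at least 1.25-fold below the mean of the other controls, against 20.8% of all genes tested. These were AXL, DDR2, EPHA3, EPHA4, EPHB3, ERBB4, FGFR4 and PDGFRB.

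**Figure D4:**
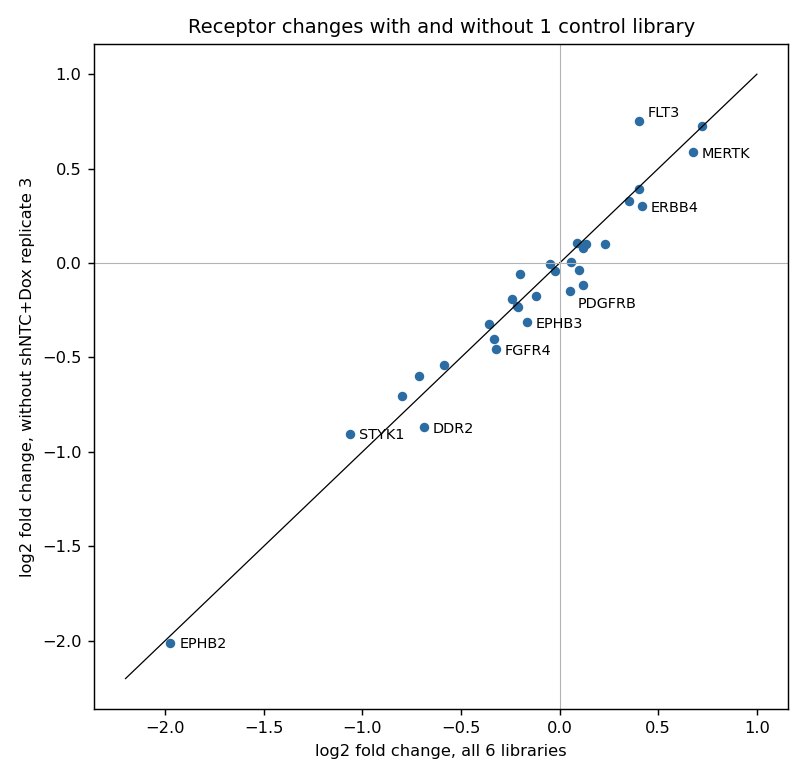
Log2 fold change with all 6 libraries (x axis) against that without shNTC+Dox replicate 3 (y axis) for the receptors tested in both fits, with the line of equality. PDGFRB moved from 0.05 to -0.15, DDR2 from -0.69 to -0.87 and FLT3 from 0.40 to 0.75, while EPHB2 and MERTK kept close to the line.

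IGF1R, the receptor the study follows, is outside the list and is given for comparison. It had 2983, 3195 and 2349 counts in shNTC and 3440, 3267 and 3913 in shEHD1, with all knockdown libraries slightly above the controls in CPM (log2 fold change 0.19, SE 0.07, adjusted p = 0.0960). INSR did not pass either (log2 fold change -0.10, adjusted p = 0.712).

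The ligands of the whole class were examined through a list of 73 genes, of which 33 could be tested. Of these 5 rose and 6 fell (33.3% called, beside 17.3% of all genes tested), with a median log2 fold change of 0.07. Beside PROS1, EFNB1, NRG1 and WNT5A described above, KITLG, the ligand of KIT, fell from 121, 154 and 125 counts in shNTC to 30, 74 and 56 in shEHD1 (log2 fold change -1.43, SE 0.34, adjusted p = 0.0220), and the call was lost without shNTC replicate 2 or shEHD1 replicate 3. TGFA, a ligand of EGFR, fell from 148, 164 and 165 counts to 99, 63 and 109 (log2 fold change -0.98, SE 0.20, adjusted p = 0.0116). KIT and EGFR themselves had no counts. PDGFC rose (log2 fold change 0.54, adjusted p = 0.0183) with its main receptor PDGFRA near 0, and PDGFD, a ligand of PDGFRB, fell (log2 fold change -0.33, adjusted p = 0.0495), the latter call being lost in 6 alternatives.

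RET ligands are described although RET itself had almost no counts. GDNF, at 316, 327 and 303 counts in shNTC and 273, 278 and 315 in shEHD1 (log2 fold change -0.26, adjusted p = 0.173), and NRTN (0.18, adjusted p = 0.723) were not called. PSPN, encoding persephin, fell from 114, 135 and 163 counts in shNTC to 69, 69 and 85 in shEHD1 (log2 fold change -1.04, SE 0.23, adjusted p = 0.0169). ARTN, encoding artemin, fell from 29, 29 and 29 counts to 6, 13 and 8 (log2 fold change -1.79, SE 0.41, adjusted p = 0.0201). ARTN passed the filter on low counts only with the control libraries, so its count among the falling ligands carries no weight of its own. GDF15, a stress-induced cytokine that signals through RET with GFRAL, rose from 7, 0 and 5 counts to 101, 36 and 64 (log2 fold change 3.86, SE 0.70, adjusted p = 0.00793). GDF15 passed the filter on low counts only through the shEHD1 libraries, where it is high, so its count among the rising ligands carries no weight of its own. It was not tested when a shEHD1 library was left out or when 10 counts were required in every library. Its controls lie near the counting limit, so the size of the fold is poorly fixed. GFRAL was at 0 in every library.

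**Figure D5:**
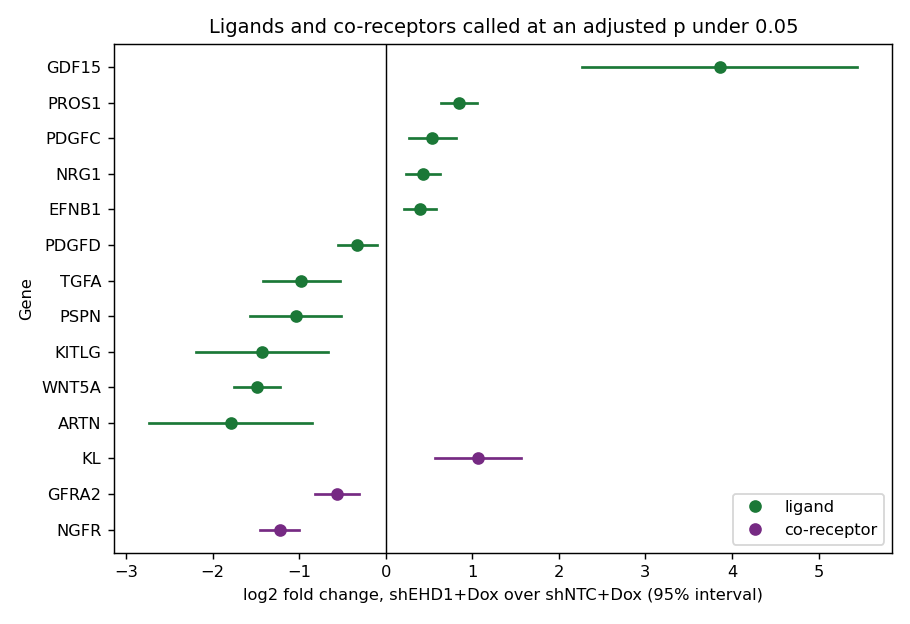
Log2 fold change of shEHD1+Dox over shNTC+Dox with its 95% interval for the 11 ligands (green) and 3 co-receptors (purple) called at an adjusted p under 0.05. GDF15 lay highest at 3.86 with a wide interval, PROS1 rose by 0.84 and WNT5A fell by 1.49 on the log2 scale.

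Among 13 co-receptors, 7 were tested and 3 called (42.9%, a share of few genes, beside 17.3% of all genes). NGFR, the low-affinity neurotrophin receptor, fell to 42.8% of control, from 981, 997 and 935 counts to 440, 385 and 558 (log2 fold change -1.23, SE 0.10, adjusted p = 0.000237), with 27.2% of its exon length shared with other genes, while its partners NTRK2 and NTRK3 were at 0. KL, encoding klotho, the FGF23 co-receptor, rose from 45, 61 and 39 counts to 130, 99 and 101 (log2 fold change 1.06, SE 0.22, adjusted p = 0.0127). GFRA2, the neurturin co-receptor of RET, fell (log2 fold change -0.57, adjusted p = 0.0102). The decoy receptor FGFRL1 did not pass (log2 fold change -0.29, adjusted p = 0.205), but was called without shNTC replicate 3 (-0.43, adjusted p = 0.0162).

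Of 32 intracellular adaptors, 27 were tested, with 3 higher and 3 lower (22.2%, near the 17.3% of all genes, median log2 fold change 0.06). The docking proteins GAB2 (log2 fold change 0.82, adjusted p = 0.00663) and GAB1 (0.44, adjusted p = 0.0373) rose. SHC1, which links receptors to GRB2 and SOS, fell from 9116, 9401 and 7252 counts to 7222, 5694 and 8035 (log2 fold change -0.44, SE 0.07, adjusted p = 0.00394), and 15.2% of its exon length is shared with other genes. GRB14, an adaptor that restrains receptor signaling, fell with a log2 fold change of -1.01 (adjusted p = 0.0205). The remaining calls were SOS2, higher, and DOK6, lower.

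Negative regulators numbered 22, of which 17 were tested, with 3 higher and 1 lower (23.5%, beside 17.3% of all genes, median log2 fold change 0.13). The ubiquitin ligase CBLB, which marks activated receptors for degradation, rose from 446, 480 and 319 counts to 784, 680 and 810 (log2 fold change 0.75, SE 0.10, adjusted p = 0.00225), and CBL by 0.30 on the log2 scale (adjusted p = 0.0416). The receptor-directed phosphatase PTPN12 rose as well (log2 fold change 0.42, adjusted p = 0.0178). SPRED2, an inhibitor of RAS activation, fell (log2 fold change -0.38, adjusted p = 0.0219).

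Of 13 transcripts commonly read as output of ERK signaling, 11 were tested, with 2 higher and 1 lower (27.3%, beside 17.3% of all genes, median log2 fold change 0.04), and they did not move in 1 direction. SPRY4, a feedback inhibitor of FGF signaling, fell to 23.3% of control, from 101, 83 and 86 counts to 31, 25 and 12 (log2 fold change -2.10, SE 0.36, adjusted p = 0.00582). Its relative SPRY2 rose (log2 fold change 0.54, adjusted p = 0.0473), a call lost in 7 alternatives. Without shNTC replicate 3 the SPRY2 log2 fold change was 0.49 (adjusted p = 0.0609). PHLDA1 also rose (0.87, adjusted p = 0.00443) and shares 9.35% of its exon length with other genes. The calls of CBL, PTPN12, SPRED2, GAB1, GRB14, SOS2, DOK6, PSPN, PDGFC, ARTN and KL were also lost when 1 or more particular libraries were left out, and those of CBL (adjusted p = 0.0606), GRB14 (0.0558), SOS2 (0.0612) and ARTN (0.0524) with the replicate number as a block.

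Some of these receptors are typical of other cell types. Markers of endothelium, leukocytes and epithelium were scarce, except for EGFL7 and KRT18, whereas the fibroblast list was carried by COL3A1. The endothelial genes PECAM1, CDH5 and VWF had at most 3 counts in any library, and the endothelial list summed to between 20.3 and 24.7 CPM, most of it EGFL7 (18.3 CPM in shNTC). The leukocyte genes PTPRC, CD14, LYZ and TYROBP had at most 11 counts, with a list sum of 2.84 to 6.14 CPM, most of it CD68. EPCAM and CDH1 had at most 5 counts and KRT5 and KRT14 none, with an epithelial sum of 24.3 to 31.2 CPM carried by KRT18. In the fibroblast list 5 of 6 genes were tested and PDPN was at 0, and its sum of 231.5, 236.6 and 190.8 CPM in shNTC and 359.1, 416.8 and 379.2 CPM in shEHD1 was mostly COL3A1. DCN, the other fibroblast gene called, fell (log2 fold change -1.02, adjusted p = 0.00779). The part of other cells in the DDR2 and PDGFRB values was not tested.

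The called receptors lie on 7 autosomes in GRCh38: MERTK (ENSG00000153208) at chr2:111898607-112029561, MET (ENSG00000105976) at chr7:116672196-116798377, EPHB2 (ENSG00000133216) at chr1:22710839-22921500 and DDR2 (ENSG00000162733) at chr1:162631373-162787405 on the plus strand, together with FGFR3 (ENSG00000068078) at chr4:1793293-1808872. On the minus strand are EPHA5 (ENSG00000145242) at chr4:65319563-65670495, ROR2 (ENSG00000169071) at chr9:91563091-91950228, STYK1 (ENSG00000060140) at chr12:10618923-10674318 and LTK (ENSG00000062524) at chr15:41503637-41513887. All are protein-coding. The promoters of 3 of them are shown: MERTK, the rise called in those 11 alternatives, EPHA5, the largest fall, and LTK, the called receptor with an ETS-type match, EWS-FLI1 being an ETS-family fusion. The sequences are RefSeq promoter windows in GRCh38.p14, written 5′ to 3′ on the strand of the gene and ending before the gene start. The MERTK sequence holds 250 bases. Those of EPHA5 and LTK hold 244 and 190, their windows lying 6 and 60 bases from the GENCODE start. They span chr2:111898357-111898606 (plus strand), chr4:65670496-65670739 (minus strand) and chr15:41513888-41514077 (minus strand). Capitals mark matches, on either strand, to the letters GGGCGG (GC box) and CCGGAAG (ETS core).
MERTK: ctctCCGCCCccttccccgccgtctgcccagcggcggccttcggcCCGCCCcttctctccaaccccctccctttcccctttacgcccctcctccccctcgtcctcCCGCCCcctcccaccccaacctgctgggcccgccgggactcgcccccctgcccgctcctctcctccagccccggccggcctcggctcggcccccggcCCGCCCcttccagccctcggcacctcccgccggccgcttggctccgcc
EPHA5: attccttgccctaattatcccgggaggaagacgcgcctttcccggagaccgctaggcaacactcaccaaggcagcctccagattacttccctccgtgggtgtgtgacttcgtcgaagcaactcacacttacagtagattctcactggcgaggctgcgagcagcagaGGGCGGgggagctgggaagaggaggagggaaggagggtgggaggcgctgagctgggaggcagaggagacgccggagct
LTK: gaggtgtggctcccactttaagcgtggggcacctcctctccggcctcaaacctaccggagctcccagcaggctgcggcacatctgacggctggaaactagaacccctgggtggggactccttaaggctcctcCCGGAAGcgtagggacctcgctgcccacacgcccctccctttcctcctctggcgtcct
In the 250 bases before the start, GGGCGG or its complement occurred in 42.6% of 35116 RefSeq promoters. It occurred in 35 of the 48 receptors that had a window (72.9%) and in 6 of 8 called receptors with one, STYK1 having none listed. The values for all promoters count every window, and a gene can have more than 1. Each receptor is counted by the window nearest its GENCODE start, so the shares are not of like units. MERTK held 4 matches and EPHA5 held 1. CCGGAAG occurred in 8.52% of all promoters and in 3 of the 48 receptors, LTK, ERBB2 and MST1R. The paired letters GGAAGGAA, a short stretch of the GGAA repeats that EWS-FLI1 binds, occurred in 3.06% of all promoters and in none of the 48 receptor windows, and TATAAA in 10.7% and in 3 receptors, DDR2 among the called ones. The windows of 7 receptors (AATK, DDR1, DDR2, EPHB6, KIT, NTRK2 and TYRO3) lie over 500 bases from the gene start in GENCODE, that of DDR2 by 510 bases, so their matches belong to the RefSeq start. The receptor windows were rich in G and C, with a median of 67.2% beside 58.0% for all promoters, and 9 of the 13 receptors with 0 counts also held a GC box. A match is a description of letters in this window and not a binding site.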

How the data were processed

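RNA was sequenced from TC71 cells expressing shNTC or shEHD1 after Dox (3 libraries each, paired-end, TruSeq RNA v2 kit, which does not mark strand, so a gene and an antisense partner share reads). The authors deposited 1 table of counts per gene for the 6 libraries. The labels name STAR 2.7.3a, hg38 and DESeq2 among the submitters' processing notes, whereas the study's methods name hisat2 with Ensembl annotation, StringTie for quantification to TPM, and DESeq2. Which of these routes made the count table, and how it was counted, is not given in the sources used here.

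Counts were tested with edgeR 4.0.16 (R 4.3.3): TMM normalization, a minimum of 10 counts in 3 or more libraries, robust quasi-likelihood fit of shEHD1 against shNTC without covariates, and Benjamini-Hochberg adjustment over all 16785 genes tested. A gene was called at an adjusted p under 0.05, and in a stricter rule also at a 2-fold change. SE was derived from the F statistic. Levels are TMM-normalized CPM, per kilobase of GENCODE 44 exon union where genes are compared (99.5% of identifiers matched). DESeq2 1.42.0, its size factors, other filters, a replicate block, a test against a 2-fold threshold, longest-transcript lengths and leaving out each library were the alternatives. The typical variation between replicates beyond counting noise was 15%.

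The members and the gene lists were chosen with earlier results of these data known. All 54 members are accounted for, and named in full are EHD1, IGF1R, the called members and the 5 highest per kilobase. From each list of pathway genes, those named are the 4 largest called changes with a mean of at least 1 CPM, with the ligands and co-receptors of called members. The other ligands, adaptors and marker genes were named after their values were seen.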

Additional observations from a re-analysis of the deposited data

How the results depend on the processing

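The 9 receptor calls numbered 8 to 10 under other size factors, other filters on low counts and DESeq2. In these fits 30 to 41 receptors were tested and 8.35% (no filter) to 21.6% (DESeq2) of all genes were called. With 1 library left out they numbered 4 to 12 (12.5% to 38.7%, all genes 8.05% to 21.8%), the highest being without shNTC replicate 3. Replicate numbers did not pair the libraries: the deviations of same-numbered libraries correlated at 0.072, -0.0593 and -0.0448. With the replicate number as a block 7 receptors were called (21.9%), and over all genes 1766 (10.5%) in place of 2910. At 2-fold, the 3 receptors became 1 with at least 10 counts in every library (3.33%, all genes 2.7%) or with DESeq2 (3.12%, all genes 2.78%). They became 0 when the 2-fold threshold was tested in the model (39 over all genes in place of 473). With 1 library left out they became 1 to 2 (3.23% to 6.45%, all genes 1.78% to 2.75%). Leaving out 1 library gave 1322 to 3616 genes called, and 293 to 452 at 2-fold. The same fits gave 4 to 14 ligands (12.5% to 43.8%) and 2 to 5 co-receptors (28.6% to 71.4%). They gave 2 to 6 adaptors (7.41% to 23.1%), 1 to 7 negative regulators (5.88% to 41.2%) and 2 to 5 ERK output genes (18.2% to 45.5%). The share of all genes called in these fits was 8.05% to 21.8%. The highest of each was without shNTC replicate 3, and DESeq2 gave 6 ERK output genes (54.5%, all genes 21.6%). Fewer libraries also leave fewer degrees of freedom. Changes of sign were limited to genes called in neither fit. Over the fits without 1 library the log2 fold changes of these genes ranged as follows. AXL ran from -0.12 (without shNTC replicate 3) to 0.50, and was also below 0 without shEHD1 replicate 1 (-0.11). EPHA2 ran from -0.084 to 0.044 (without shNTC replicate 1) and was 0.027 without shEHD1 replicate 3. EPHA3 ran from -0.036 (without shNTC replicate 3) to 0.19, and PDGFRB from -0.15 (without shNTC replicate 3) to 0.19, with -0.040 without shEHD1 replicate 3. Among the ephrins EFNA1 ran from -0.30 to 0.066 (without shNTC replicate 2), EFNA3 from -0.14 to 0.17 (without shNTC replicate 2), with 0.14 without shEHD1 replicate 2 and 0.0051 with no filter, and EFNB3 from -0.063 (without shNTC replicate 3) to 0.18. Over the named genes, 743 recomputed log2 fold changes kept direction and side of the threshold, 84 lost a call and 13 gained one, and the causes were not tested. EPHA5, EPHB2 and AXL had low counts and wide intervals, and the part of depth in this was not tested. The 9 receptors below the filter were not called with no filter. For the 13 at 0 counts absence, a level under the counting limit and low counts set to 0 cannot be told apart.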
